A study of Homo sapiens with 6 samples.

Results

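KLF5 binding in Calu-3 was compared with that in 16HBE14o-, both labelled as human bronchial epithelial cells, over every region of their KLF5 peak lists. Those lists held 4772 regions, 1510 from Calu-3 and 3262 from 16HBE14o-, of 74158 regions in the whole series, whose remaining list is CEBPB in Calu-3. Binding was measured by ChIP-seq, in which DNA bound by a factor is pulled down with an antibody and sequenced. Calu-3 was derived from an adenocarcinoma of the lung, whereas 16HBE14o- cells are bronchial cells that were immortalised. Each is a single established line, and both were kept untreated in DMEM with 10% FBS. Each group had 2 samples. One Calu-3 sample was precipitated with a rabbit anti-KLF5 antibody, whereas the other Calu-3 sample and both 16HBE14o- samples were precipitated with the same Santa Cruz antibody, so cell line and antibody cannot be told apart fully. The authors made 1 list from both samples of a group. No spread between samples could therefore be computed, no test was made, and every comparison describes these lists. Sequencing depth is unknown, and a region absent from a list was not shown to be unbound.

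KLF5 is a zinc finger factor of the Krüppel-like family, whose members bind GC-rich and CACCC-type sequences in promoters and enhancers. It is expressed in proliferating and barrier epithelia, and it is known for roles in epithelial differentiation, junctions and repair. HES1 and LFNG, at which several of the sites below lie, belong to the Notch pathway, in which a receptor cleaved after ligand contact switches on repressors such as HES1, and in which the glycosyltransferase LFNG modifies the receptor. Positions are on hg19. Gene names beside them are background, taken from general knowledge of where these genes lie on hg19 and not from an annotation of that build.

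The promoters of 4 genes at which the lists differ are shown to give the sequence context. They were matched by symbol in RefSeq (GRCh38.p14) and cover the 250 bases before the annotated start. Since the peaks are on another build, they were not placed on these bases. Capitals mark the letters CACCC or CCGCCC on either strand (GGGTG or GGGCGG as read here), and neighbouring matches run together.

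HES1, chr3:194135898-194136147, plus strand: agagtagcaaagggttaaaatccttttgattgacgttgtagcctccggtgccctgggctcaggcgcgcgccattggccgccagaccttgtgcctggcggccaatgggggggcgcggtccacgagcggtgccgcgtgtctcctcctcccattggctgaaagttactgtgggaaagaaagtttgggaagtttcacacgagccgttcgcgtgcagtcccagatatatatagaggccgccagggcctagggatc

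ZNF837, chr19:58381031-58381280, minus strand: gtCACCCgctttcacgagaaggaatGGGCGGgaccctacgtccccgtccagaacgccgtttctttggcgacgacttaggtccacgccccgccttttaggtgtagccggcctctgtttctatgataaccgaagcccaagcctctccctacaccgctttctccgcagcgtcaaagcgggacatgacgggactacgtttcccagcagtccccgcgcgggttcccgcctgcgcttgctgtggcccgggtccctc

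TUBB2A, chr6:3157545-3157794, minus strand: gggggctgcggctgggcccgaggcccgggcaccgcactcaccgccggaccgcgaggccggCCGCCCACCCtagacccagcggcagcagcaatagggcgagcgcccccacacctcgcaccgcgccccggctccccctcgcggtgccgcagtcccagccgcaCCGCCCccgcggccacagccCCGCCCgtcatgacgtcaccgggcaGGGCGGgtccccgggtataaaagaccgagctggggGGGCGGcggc

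RPL27, chr17:42998169-42998418, plus strand: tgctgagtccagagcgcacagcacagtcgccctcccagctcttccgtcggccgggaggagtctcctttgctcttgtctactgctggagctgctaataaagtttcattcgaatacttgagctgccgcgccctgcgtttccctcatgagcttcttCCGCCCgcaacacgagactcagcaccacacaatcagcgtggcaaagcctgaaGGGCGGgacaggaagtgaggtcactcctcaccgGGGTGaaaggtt

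At HES1 and ZNF837 the shared peak ranked higher in Calu-3. At TUBB2A it ranked higher in 16HBE14o-, and RPL27 had a peak in the 16HBE14o- list alone. The HES1 window held neither motif. ZNF837 held 1 CACCC and 1 CCGCCC match. TUBB2A held 1 CACCC and 5 CCGCCC matches. RPL27 held 1 CACCC and 2 CCGCCC matches. Of the 27305 RefSeq promoters cut to the same length, 53.7% held CACCC, 42.3% held CCGCCC and 69.5% held at least one of them, so a match is common.

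Regions high in one list were found in the other more often than lower ones. In each list the authors' signal, whose normalization was not stated, was used to rank peaks, with percentile 100 for the highest. Signals ran from 6.89 to 240 in Calu-3 (median 27.2) and from 8.66 to 201 in 16HBE14o- (median 30.1). Peaks sharing at least 1 bp were counted as overlapping, which held for 23.6% of all Calu-3 and 11.3% of all 16HBE14o- peaks. With the 16HBE14o- list limited to its 1510 highest peaks, these shares were 18.1% and 17.9%. Of the 10 highest Calu-3 peaks, 7 had a 16HBE14o- peak, and 8 of the 10 at the top of the 16HBE14o- list overlapped a Calu-3 peak. The share was 64.0% (exact 95% interval 49.2 to 77.1) for the 50 highest Calu-3 peaks and 50% (35.5 to 64.5) for the 50 highest 16HBE14o- peaks. Among the 200 highest it was 47.0% (39.9 to 54.2) and 38% (31.2 to 45.1). Intervals cover counting error only. The partner was not always high. Of the 94 shared peaks among the 200 highest of Calu-3, 41 met a 16HBE14o- peak in the top 10% of its list and 18 met one in the lower 50%. The 76 shared peaks among the 200 highest of 16HBE14o- split into 29 and 16 in the same way.

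**Figure D1:**
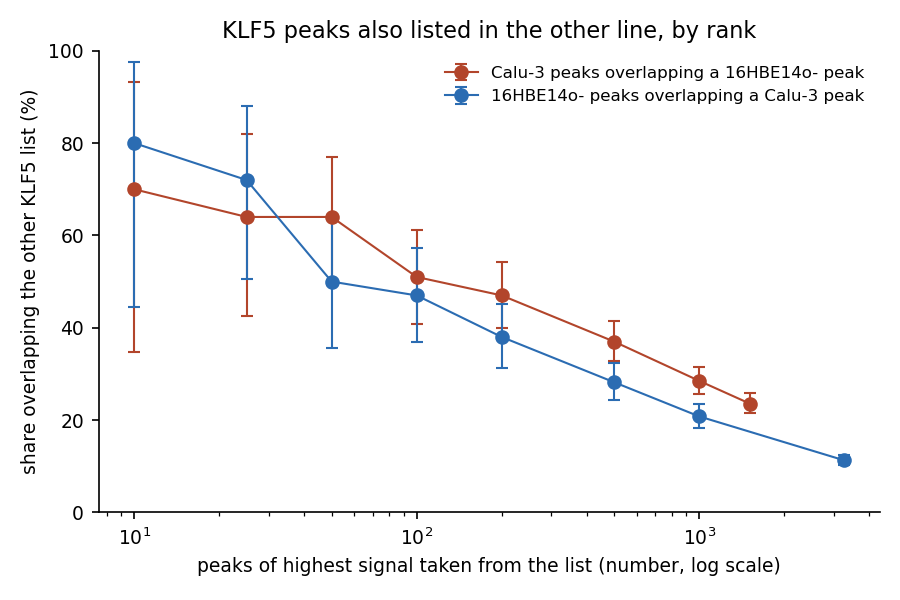
Share of KLF5 peaks that overlap a peak of the other line (y axis, %) among the peaks of highest signal (x axis, number taken, log scale); bars are exact 95% intervals for counting error. The share is 70.0% of the top 10 in Calu-3 and 80.0% in 16HBE14o-, and 23.6% and 11.3% with all peaks.

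The highest Calu-3 peak lay at HES1 on chromosome 3. Within 300 kb of the highest Calu-3 peak, the Calu-3 list held 20 peaks, 10 of them in its top 10%, and the 16HBE14o- list held 1. Just outside this window lay a 16HBE14o- peak of percentile 12.1, at 43.5 kb from the Calu-3 peak that starts at 193590119. Chromosome 3 as a whole held 243 Calu-3 and 113 16HBE14o- peaks. Around the gene itself, 6 Calu-3 peaks stood in a row. The highest of the whole list, at 193852569 to 193852984, had a signal of 240. A second at 193853697 to 193853880, at the 5′ end of HES1, had a signal of 176. These were flanked by peaks at 193852227 to 193852300 (signal 57.8), 193855439 to 193855718 (39.0), 193858525 to 193858804 (26.2) and 193859441 to 193859526 (62.5). The single 16HBE14o- peak of the window, at 193853706 to 193854049, overlapped the second of them with a signal of 26.5 (percentile 30.2). It lay 0.722 kb from the highest Calu-3 peak.

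Most of the other Calu-3 peaks lay on the side towards OPA1, a mitochondrial fusion gene. Peaks at 193720896 to 193721175 and 193721528 to 193721597 (signals 103.8 and 100.6) were 132 and 131 kb from the highest peak. One at 193788901 to 193789180 (81.9) was 63.8 kb away, and a group of 3 between 193587568 and 193603946 (47.2, 72.3 and 49.4) was 249 to 265 kb away. On the far side, towards CPN2, 4 weak peaks at 194018205 to 194040928 had percentiles from 4.11 to 48.8. CEBPB overlapped 8 of the 20 Calu-3 peaks, against 43.7% of the whole Calu-3 list. The highest was among the 8, and its CEBPB peak was at percentile 42.6 of the CEBPB list.

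**Figure D2:**
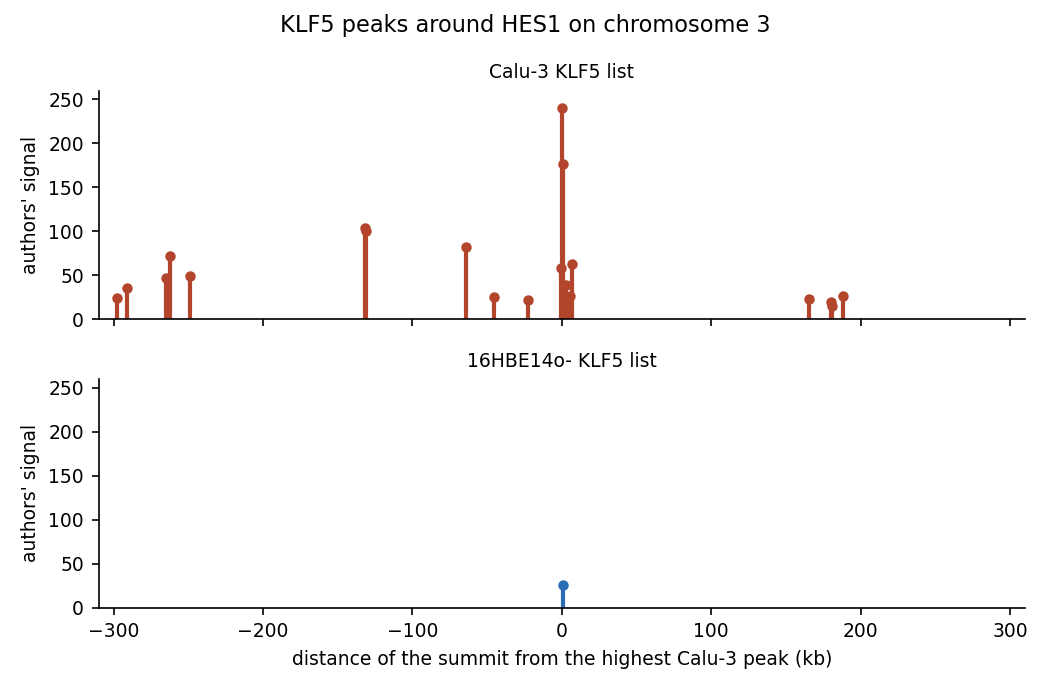
KLF5 peaks within 300 kb of the highest Calu-3 peak at HES1: each stem is a peak, x is the distance of its summit from that peak (kb) and y is the authors' signal, with Calu-3 above and 16HBE14o- below. The Calu-3 panel holds 20 peaks and the 16HBE14o- panel holds 1, with a signal of 26.5; signals of the panels are not on a shared normalization.

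A second Notch gene, LFNG on chromosome 7, had the highest Calu-3 peak with no 16HBE14o- peak in the surrounding 100 kb. That peak, at 2563873 to 2564091 within LFNG, had a signal of 178, second in its list. It was accompanied by peaks at 2563117 to 2563396 (32.9) and 2569446 to 2569725 (41.6), and the nearest 16HBE14o- peak was 108 kb away. CEBPB overlapped none of the 3. Among the 10 highest Calu-3 peaks without a 16HBE14o- partner, 5 came from the stretch within 300 kb of the highest peak at HES1, and 1 was in LFNG. Others lay at the 5′ end of HR, a nuclear corepressor (chromosome 8 at 21988720 to 21988999, signal 95.3), between DUSP26 and UNC5D (chromosome 8 at 33901346 to 33901625, 90.05), and at the 5′ end of SEMA3B, a secreted semaphorin (chromosome 3 at 50306349 to 50306628, 78.2). HR had a 16HBE14o- peak of percentile 45.9 at a distance of 5.81 kb, whereas SEMA3B had none within 1818 kb. CEBPB overlapped 4 of the 10 peaks, including the one between DUSP26 and UNC5D, where its own percentile was 87.5. Over all unpartnered Calu-3 peaks the share with CEBPB was 44.8%.

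Of the 10 highest 16HBE14o- peaks without a Calu-3 partner, 9 had no Calu-3 KLF5 peak within 100 kb. This held for 5 of 10 the other way round. However, 5 of those 10 Calu-3 peaks came from the same stretch of chromosome 3, within 300 kb of the highest peak at HES1. Over all unpartnered peaks, 27.7% of 16HBE14o- and 39.8% of Calu-3 peaks had one within 100 kb, so the counts of 10 show little beyond that. The Calu-3 list is the shorter of the pair. The first of the 16HBE14o- peaks, between MAPK1IP1L and LGALS3 on chromosome 14 (55570088 to 55570223), had a signal of 149. LGALS3 encodes galectin 3, a secreted lectin of epithelia. The second, between ZNF217 and BCAS1 on chromosome 20 (52364830 to 52364920), had a signal of 135.

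The others included peaks at the 5′ ends of 4 genes. These were RPL27, a ribosomal protein gene (chromosome 17 at 41150123 to 41150466, signal 106), RBBP8NL (chromosome 20 at 61002517 to 61002860, 102), PCMT1, a protein repair methyltransferase (chromosome 6 at 150070749 to 150070863, 92.2), and TMEM200B (chromosome 1 at 29451092 to 29451178, 91.7). Another lay within MAML2, a Notch coactivator (chromosome 11 at 95724305 to 95724648, 95.5), 4378 kb from any Calu-3 peak. Further peaks lay between KCNG1 and NFATC2 (chromosome 20 at 49875147 to 49875490, 92.0) and on chromosome 16 at 85387448 to 85387791 (94.6). Calu-3 CEBPB overlapped 2 of the 10, both on chromosome 20, against 20.2% of all unpartnered 16HBE14o- peaks.

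Neighbouring peaks of either list at most 20 kb apart were joined into 3267 loci. A locus is named below by genes that it touches, and its peaks can lie outside those genes. Peaks of both lists occurred at 412 loci (12.6%, 11.5 to 13.8), Calu-3 alone at 843 and 16HBE14o- alone at 2012. Loci with at least 3 peaks of a single line numbered 12 for Calu-3 and 99 for 16HBE14o-. With overlapping entries of a list merged these numbers were 9 and 62. Without chromosomes 3 and 20 they were 7 and 62. With the 16HBE14o- list limited to its 1510 highest peaks the order turned, to 22 and 12. Chromosome 20 held 35 of the 99 16HBE14o- loci and 14.1% of all 16HBE14o- peaks, against 6.56% of all Calu-3 peaks. Chromosome 3 held 5 of the 12 Calu-3 loci and 16.1% of all Calu-3 peaks, against 3.46% of all 16HBE14o- peaks. The lists thus differed over these chromosomes as a whole, and not at the dense loci alone.

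The clearest dense Calu-3 locus lay over the secreted gel-forming mucins. Between 1225055 and 1258795 on chromosome 11, from just past MUC5AC into MUC5B, stood 6 Calu-3 peaks with signals of 53.5, 27.5, 33.7, 28.2, 47.8 and 50.3, and no 16HBE14o- peak. Their percentiles ran from 51.3 to 94.8, none overlapped another, and 2 had a CEBPB peak. ZBTB7A, a zinc finger repressor (chromosome 19, 4052464 to 4061514), held 3 peaks with signals of 52.8, 58.6 and 26.6. ARID3A (chromosome 19, 934970 to 941337) also held 3, of which 2 overlapped each other, with a highest signal of 52.9. A set of 4 peaks between EPHB3 and MAGEF1 (chromosome 3, 184315650 to 184320655) became 3 after merging. The locus with the most peaks, 7 on chromosome 10 between 47108439 and 47137114, reached only percentile 71.6, and 4 of the 7 lay below percentile 10. The remaining loci of this rank, on either side of HES1 within 300 kb, in LFNG, between FGFRL1 and RNF212 and in PTPRN2, held 3 or 4 peaks each.

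In 16HBE14o-, dense loci without a Calu-3 peak included one that takes in LTBP3 (chromosome 11, 65306249 to 65340227). LTBP3 encodes a binding protein for latent TGF-beta. The locus held 8 peaks, or 6 after merging, with a highest signal of 48.2. Another 8, none overlapping, covered SOX18, TCEA2, RGS19 and OPRL1 (chromosome 20, 62669999 to 62711595), with a highest signal of 40.8. From beyond YAP1, the coactivator of the Hippo pathway, to the 5′ end of BIRC3, an NF-kB target and inhibitor of apoptosis (chromosome 11, 102115722 to 102188509), lay 7 peaks, or 6 after merging. The highest of them, at 102176954 to 102177297, had a signal of 77.5, and the one at the 5′ end of BIRC3 had 31.3.

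The locus with RBBP8NL and CABLES2 held 7 peaks (chromosome 20, 60982325 to 61015161). That with INF2, an actin regulator, held 6 (chromosome 14, 105144328 to 105164542, highest signal 64.5), and that with AHNAK2 held 6 (chromosome 14, 105434343 to 105452212, highest 30.4). Between the gene of CEBPB itself and PTPN1 lay 5 peaks (chromosome 20, 48959264 to 48989625, highest 78.6), and from YTHDF1 towards BIRC7 another 5 (chromosome 20, 61847484 to 61865425, highest 75.6). The other 2 of the 10, on chromosome 15 at 20545815 to 20550794 and on chromosome 3 at 87658551 to 87679527, held 6 entries each that merged to 3 and 4.

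Some peaks of a single line stood close to a peak of the other. Of the 1154 Calu-3 peaks without a partner, 151 had a 16HBE14o- peak within 10 kb (13.1%). For the 2894 unpartnered 16HBE14o- peaks this held for 192 (6.63%). With the 16HBE14o- list limited to its 1510 highest peaks the shares were 8.25% and 6.94%, and with peaks of the highest deposited score they were 8.39% and 4.74%. The median distance to the other list was 174 kb for Calu-3 and 337 kb for 16HBE14o- peaks. At 2 kb the shares were 4.94% and 2.21%, so few of the single-line peaks were near misses of the overlap rule.

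**Figure D3:**
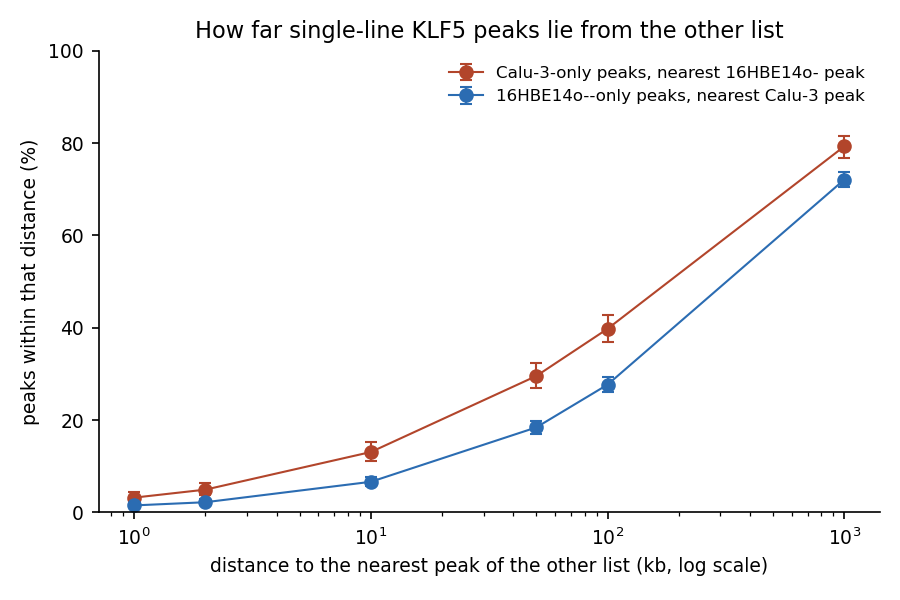
Share of single-line KLF5 peaks (y axis, %) whose nearest peak of the other list lies within a given distance (x axis, kb, log scale), with exact 95% intervals. At 10 kb the share is 13.1% for Calu-3 and 6.63% for 16HBE14o-, and at 100 kb it is 39.8% and 27.7%.

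At 96 loci both lists had peaks and none of them overlapped. EZR encodes ezrin, a linker of membrane and actin. The locus that takes in its 5′ end (chromosome 6, 159239104 to 159290874) was spread over 51.8 kb. It had 6 16HBE14o- entries and 1 Calu-3 peak, at least 3.21 kb apart. The 16HBE14o- signals there were 49.7, 42.8, 12.2, 50.3, 35.5 and 32.4, and the Calu-3 peak, at 159274413 to 159274692, had 34.2. WNT7B, a Wnt ligand (chromosome 22, 46350950 to 46373702), had 4 16HBE14o- entries, led by a signal of 64.0, and 1 Calu-3 peak of 29.3 between them. AXL, a receptor tyrosine kinase (chromosome 19, 41724799 to 41732266), had 16HBE14o- entries at its 5′ end (31.1 and 10.6) and 1 further in (32.1), and a Calu-3 peak 2.36 kb beyond the last (37.7).

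TANC1 (chromosome 2, 160003867 to 160013662) showed the opposite numbers, with Calu-3 signals of 28.8, 28.8 and 40.9 around 1 16HBE14o- peak of 36.2. The locus with PLCB3 and BAD (chromosome 11, 64013212 to 64053398) had 5 16HBE14o- peaks and 1 Calu-3 peak. The far end of LAMA5 with ADRM1 (chromosome 20, 60876912 to 60894484) also had 5 and 1. The remaining 4 of the 10 loci with the most such peaks, at SERTAD1 and SERTAD3, BIK, DNAJB12, and PSMD2 and EIF4G1, had 4 entries each.

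Shared sites could rank very differently in the 2 lists. Of the 375 overlapping pairs, 97 were in the top 25% of both lists. Another 36 were in the top 25% of Calu-3 and the lower 50% of 16HBE14o-, and 50 were the reverse. Pairs within 25 percentile points numbered 197, while 66 were at least 25 points higher in Calu-3 and 112 at least 25 points higher in 16HBE14o-. The median difference, Calu-3 minus 16HBE14o-, was -6.11 points. It was 0.695 with the 16HBE14o- list limited to 1510 peaks, and ranks in lists of unequal length are not on a common scale. CEBPB overlapped 42.4% (30.3 to 55.2) of the pairs higher in Calu-3, 41.6% (34.7 to 48.8) of those within 25 points and 34.8% (26.1 to 44.4) of those higher in 16HBE14o-.

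Entries that overlap another entry of the same list were frequent among the most extreme pairs. In the 16HBE14o- list 517 entries (15.8%) overlapped another entry of the same list, and in the Calu-3 list 72 (4.77%) did. The weaker entry of such a run was low, with a median percentile of 4.66 in 16HBE14o- and 1.42 in Calu-3. Weaker entries made up 232 of the 326 lowest 10% of the 16HBE14o- list. Among the 10 pairs most in favour of Calu-3, 6 had a 16HBE14o- entry of this kind. MYL12B, a myosin light chain gene, is the plainest case. Its Calu-3 peak (chromosome 18, 3261725 to 3262004, percentile 92.0) overlapped a 16HBE14o- entry of percentile 5.18 that itself overlapped one of percentile 99.8. A like reading held for the pairs in ARHGAP23 (95.9 for the stronger entry), in SLC2A4RG (79.8) and between TPCN2 and MYEOV (78.9). In the other direction it held for 2 of 10 pairs, near FAM83H (82.6 in Calu-3) and between KRT8 and KRT18 (80.0).

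**Figure D4:**
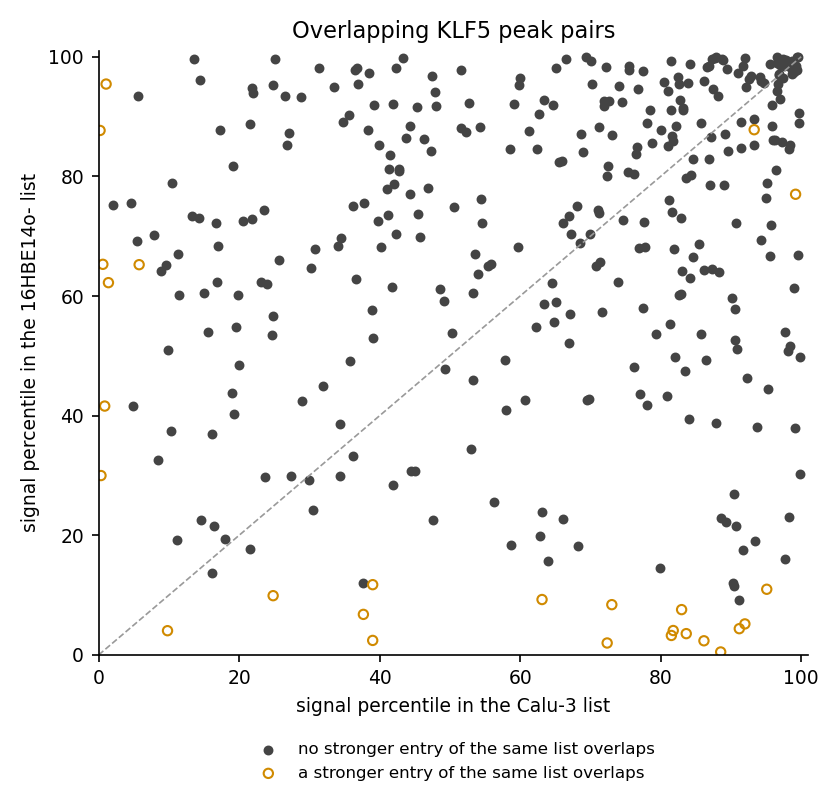
Signal percentile in the Calu-3 list (x axis) against that in the 16HBE14o- list (y axis) for the 375 overlapping KLF5 pairs, each point a pair, with the dashed line at equal percentiles; open points have an entry that a stronger entry of the same list overlaps. In total 97 pairs lie above percentile 75 in both lists.

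With such entries merged, 349 pairs remained, and the following percentiles refer to the merged lists. Most in favour of Calu-3 was the site at the 5′ end of TRIB1, a pseudokinase that directs the degradation of CEBP proteins (chromosome 8, 126442312 to 126442591). Its signal was 67.1 in Calu-3 (percentile 97.6) and 22.9 in 16HBE14o- (9.17), and a CEBPB peak of percentile 99.9 overlapped it. Next were the 5′ end of ZNF837 (chromosome 19, 58892020 to 58892299, 91.0 and 2.70), a site between CEACAM16 and BCL3, the latter an NF-kB cofactor (chromosome 19, 45245107 to 45245386, 90.2 and 4.54), and one between TNFAIP2 and EIF5 (chromosome 14, 103698815 to 103699094, 90.1 and 5.04).

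Further sites higher in Calu-3 were in FOXK1 (chromosome 7, 4784948 to 4785227, 98.2 and 16.6) and at the 5′ ends of DDIT3, which encodes the stress-induced CEBP family member CHOP (chromosome 12, 57914476 to 57914755, 93.2 and 12.3), UBE2F (chromosome 2, 238875319 to 238875598, 91.6 and 10.7) and HES1 (99.9 and 24.3). The list of 10 ended with sites between AGPAT2 and DIPK1B and upstream of TCF3. Summits of the paired peaks lay 177 bp apart at TRIB1, 203 bp near BCL3, 171 bp between TNFAIP2 and EIF5, and 252 bp in FOXK1. They lay 133 bp apart at DDIT3 and 103 bp at UBE2F, so these overlaps were partial and need not mark the same site. For ZNF837, HES1, AGPAT2 and TCF3 the distances were 18, 85, 16 and 42 bp. Over the 349 merged pairs the median was 31 bp, and 88.3% had summits within 100 bp.

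The 10 sites most in favour of 16HBE14o- began with the peak between GIPC1 and DNAJB1 (chromosome 19, 14616690 to 14616969). It stood at percentile 3.46 of the Calu-3 list but 92.9 of the other. At the 5′ end of TUBB2A, a beta-tubulin gene (chromosome 6, 3157754 to 3158033), the signals were 20.5 and 108, with percentiles of 11.5 and 99.5 and summits 3 bp apart. RTF2, a replication termination factor (chromosome 20, 55043513 to 55043792), had 22.4 and 108, with percentiles of 23.4 and 99.6. The 5′ end of SOS1, an exchange factor of RAS (chromosome 2, 39351449 to 39351728), had 22.1 and 58.1, and that of CRYBG2 (chromosome 1, 26680593 to 26680872) had 22.1 and 55.3. The 5′ ends of TTC4 and ANGEL1, a site between FOXO3 and ARMC2, and sites in PMEPA1 and LYPD6 completed the 10, with 16HBE14o- percentiles from 73.1 to 95.8. Summits of the PMEPA1 pair lay 228 bp apart, and those of the rest 3 to 66 bp. CEBPB peaks overlapped sites of both directions. Here they lay at TUBB2A (CEBPB percentile 78.7), RTF2 (87.9), TTC4 (34.2), ANGEL1 (65.2) and between FOXO3 and ARMC2 (91.3). Among sites higher in Calu-3 they lay, besides TRIB1, near BCL3 (99.7), at DDIT3 (99.4) and at UBE2F (98.8).

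Gene lists were read by counting KLF5 peaks in each gene or within 10 kb of it. Of 95 genes in 10 lists, 14 had peaks of both lines, 7 of Calu-3 alone, 24 of 16HBE14o- alone and 50 had none, so 16HBE14o-, with the longer list, marked more genes (38 against 21). The lists were chosen with earlier results known, and no gene count stands as evidence of a group difference. The hemidesmosome and laminin genes, which anchor epithelia to the basement membrane, had 16HBE14o- peaks at 7 of 8 and Calu-3 peaks at 4 of 8. At PLEC, the gene of the linker protein plectin on chromosome 8, Calu-3 had 11 peaks and 16HBE14o- 6. Of these, 4 Calu-3 peaks were shared, with Calu-3 signals of 101.3, 108, 112 and 55.9 and 16HBE14o- signals of 73.6, 34.1, 30.1 and 34.1.

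LAMA5, encoding the laminin alpha 5 chain on chromosome 20, had the opposite balance, with 6 Calu-3 and 17 16HBE14o- peaks, or 16 after merging. Chromosome 20 as a whole held 99 Calu-3 and 459 16HBE14o- peaks, so this balance is not particular to LAMA5. The count takes in the peaks of the locus with ADRM1 given above. The 4 shared peaks at LAMA5 had Calu-3 signals of 45.4, 32.3, 61.5 and 85.7 and 16HBE14o- signals of 73.7, 28.7, 68.5 and 93.5. At the 5′ end of LAMA5 stood a 16HBE14o- peak at 60942357 to 60942700 (50.6), and upstream of it another at 60945050 to 60945393 (60.5), with no Calu-3 peak overlapping either. LAMA3 had 1 Calu-3 and 3 16HBE14o- peaks, LAMB3 had 1 of each, and ITGA6 and ITGB4 had 1 16HBE14o- peak each.

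**Figure D5:**
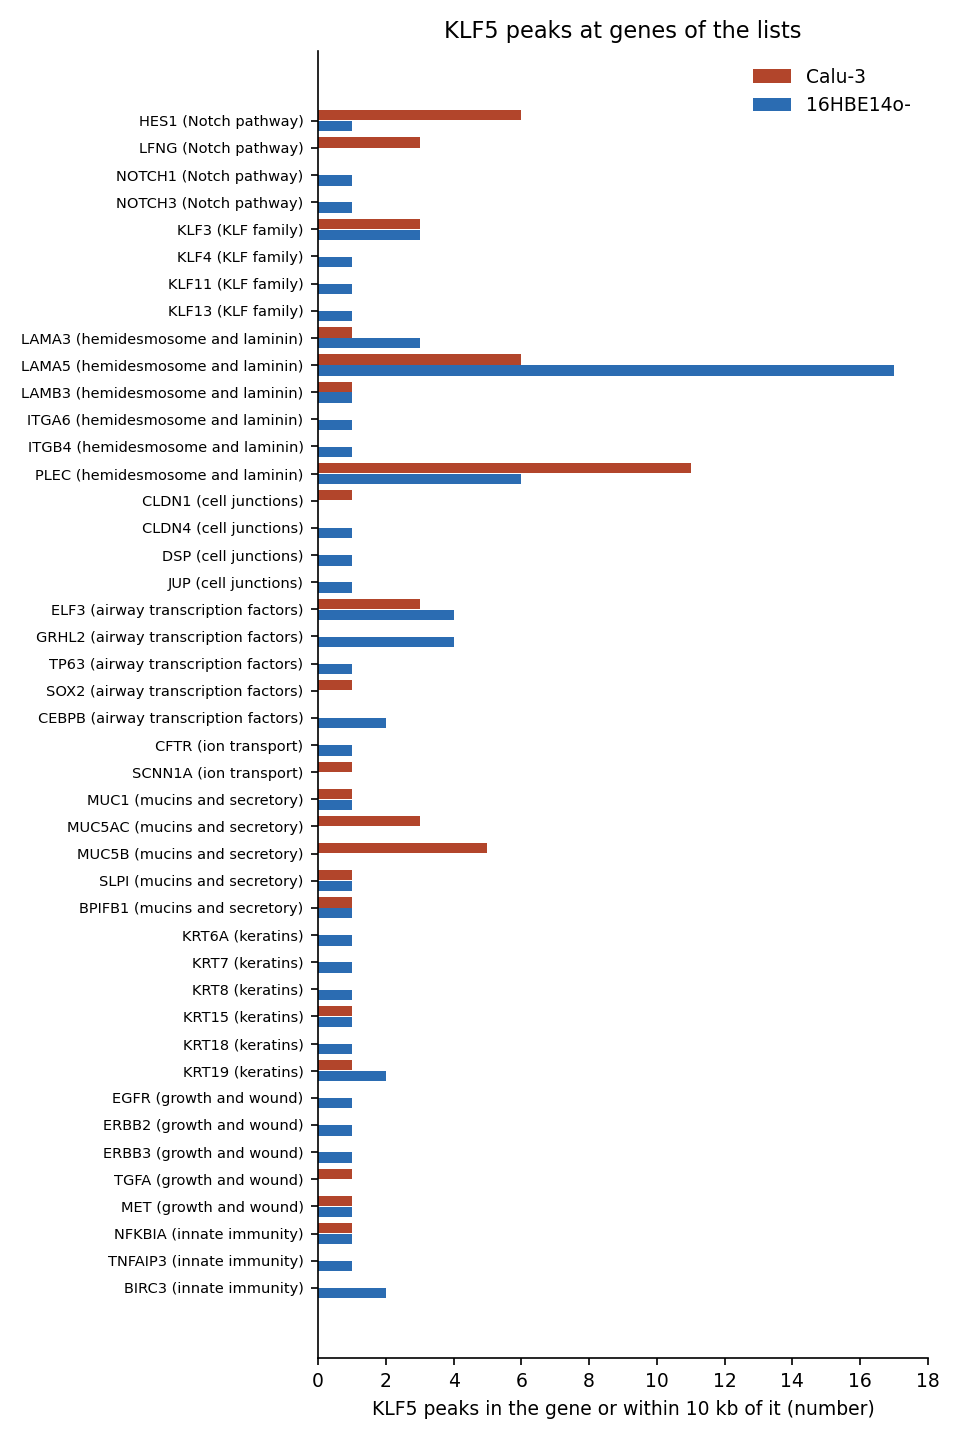
Number of KLF5 peaks in each gene or within 10 kb of it (x axis) for 44 of the listed genes with a peak in at least 1 line (y axis, with the gene list in parentheses), red for Calu-3 and blue for 16HBE14o-. PLEC has 11 and 6, LAMA5 has 6 and 17, HES1 has 6 and 1, and MUC5B has 5 and 0.

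Mucin and secretory genes showed Calu-3 peaks at 5 of 10 and 16HBE14o- peaks at 3 of 10. MUC5B had 5 and MUC5AC 3 Calu-3 peaks, none counted for both, and neither had a 16HBE14o- peak. The MUC5AC peaks were at 1147842 to 1148121 (signal 51.4), 1151325 to 1151604 (28.7) and 1225055 to 1225334 (53.5), so 2 of them lay at or before its start. MUC1, a membrane mucin, had a shared peak at its 5′ end (chromosome 1, 155163096 to 155163375), with signals of 39.0 in Calu-3 and 53.0 in 16HBE14o-. SLPI, a secreted protease inhibitor, also had 1 shared peak, at percentiles 74.1 and 95.2.

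In the Notch list, HES1 and LFNG were the genes with Calu-3 peaks, while 16HBE14o- had 1 peak each at HES1, NOTCH1 and NOTCH3. Both receptor peaks were of middle rank, at percentiles 64.0 and 56.6. Among the keratin genes, which encode the intermediate filaments of epithelia, 16HBE14o- had peaks at 6 of 11 and Calu-3 at 2 of 11. The Calu-3 peak at KRT15 and KRT19 (chromosome 17, 39678139 to 39678418, signal 58.8) was shared, with 40.3 in 16HBE14o-. KRT6A, KRT7, KRT8 and KRT18 had 1 peak each in 16HBE14o- alone. A shared site between KRT8 and KRT18, more than 10 kb from either, had signals of 37.2 in Calu-3 and 45.9 in 16HBE14o-.

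Of the junction genes, DSP, JUP and CLDN4 had a 16HBE14o- peak alone (percentiles 91.0, 89.8 and 71.8) and CLDN1 a Calu-3 peak alone (7.22). Of the airway transcription factor genes, 8 of 13 had no KLF5 peak, KLF5 itself among them, against 50 of 95 over all lists. ELF3, an epithelial ETS factor, was shared at 3 sites. At the strongest Calu-3 site (chromosome 1, 201987616 to 201987895) the signals were 78.6 and 43.2, and at 201977314 to 201977593 they were 49.2 and 63.2, so the order of the sites differed between the lines. TP63, the basal cell regulator, had a 16HBE14o- peak of percentile 77.5, and SOX2 a Calu-3 peak of 6.49. GRHL2 had 4 16HBE14o- entries, all at percentile 5.00 or below, that merged to 1.

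KLF3, a repressor of the same family as KLF5, was the member of the KLF list with peaks in both lines. Its 5′ end had a Calu-3 peak of 43.8 and 16HBE14o- entries of 25.02 and 8.89, and a second site within the gene (38675308 to 38675587 on chromosome 4) had 42.6 and 28.0. KLF4, KLF11 and KLF13 each had 1 16HBE14o- peak. Of the ion transport genes, SCNN1A, a subunit of the epithelial sodium channel, had a Calu-3 peak within 10 kb (chromosome 12, 6493095 to 6493374, signal 40.4), and CFTR, the chloride channel of airway secretions, had a 16HBE14o- peak at its 5′ end (chromosome 7, 117119549 to 117119892, 34.5). NFKBIA, the inhibitor of NF-kB, had a shared peak of 71.2 in Calu-3 (percentile 98.1) and 30.3 in 16HBE14o- (50.9), while BIRC3 (2) and TNFAIP3 (1) had 16HBE14o- peaks alone. Of the growth genes, EGFR, ERBB2 and ERBB3 had 1 16HBE14o- peak each, TGFA had 1 Calu-3 peak, and MET had 1 of each that did not overlap.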

How the data were processed

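KLF5 was profiled by ChIP-seq in 4 samples of 2 lines, and the deposited peak lists, 1 per group, were each made by the authors from both samples, per the series' design text. Per the file headers, positions refer to hg19. The authors' signal of each peak (normalization not stated), the deposited score and the authors' −log10 q-value, read by the layout of the file, were used within a list only. KLF5 lists were named as optimal IDR peaks, per the file headers; for the aligner, peak caller, filters and control, these are not given in the sources used here. Almost all peaks had a fixed width, 280 bp in Calu-3 and 344 bp in 16HBE14o-.

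Peaks were compared by overlap of 1 bp or more, by distance, and as loci joined over gaps of up to 20 kb, with exact (Clopper-Pearson) 95% intervals. Overlap, distance and loci were checked on simulated lists. Those lists held no overlapping entries of the same list, so the merging of entries was not covered. Python 3.11.15, numpy 2.4.6, pandas 2.3.3 and scipy 1.17.1 were used. Hg19 spans of 188 genes, rounded to 1 kb, were entered from general knowledge, because no annotation of that build was used; against RefSeq (GRCh38.p14), whose coordinates were not used, chromosome matched for 188, order along the chromosome for all, and length within 15% or 2.5 kb for 171. A site was put at a 5′ end within 1.5 kb of it. Sites named were the 10 highest single-line peaks, the 10 most unequal pairs in each direction and the 10 loci with the most peaks of each kind; 3 items are not reported here. The members and gene lists were chosen with earlier results of these data known. Pairs from merged lists were named after their values were seen, as were the 4 promoters, the 25-point classes, the HES1 window and single genes described within the lists.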

Additional observations from a re-analysis of the deposited data

How the results depend on the processing

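Of 50 alternative values over 7 results, 24 stayed within the 95% interval of the reported value (for the number of dense loci, within 1.5 times) and 26 did not. No sample could be left out, since each list was made from both samples. No paired analysis was possible because the lists carry no values of single samples. With summits within 100 bp required, 20.7% of Calu-3 and 9.56% of 16HBE14o- peaks overlapped. With peaks of the highest deposited score, these shares were 21.2% and 14.2%, the shares of unpartnered peaks with the other list within 10 kb were 8.39% and 4.74%, the median percentile difference of pairs was -1.32, 11.2% of loci had both lists, and 17 loci held at least 3 peaks of a single list. With the 50% of each list of higher signal, the shares within 10 kb were 10.3% and 4.31%, 10.9% of loci had both lists, and 28 loci were dense. With the 16HBE14o- list limited to 1510 peaks, the overlaps were 18.1% and 17.9%, the shares of unpartnered peaks within 10 kb were 8.25% and 6.94%, the median difference was 0.695, and 34 loci were dense. Merging overlapping entries left 71 dense loci, and leaving out chromosomes 3 and 20 left 69, of the 111 reported. Distances of 2 and 50 kb gave 4.94% and 29.5% for Calu-3 and 2.21% and 18.4% for 16HBE14o-. Gaps of 10 and 50 kb gave 11.1% and 16.2% of loci with both lists. The causes of these shifts were not tested beyond the settings themselves. Unknown depth limits every statement on a peak missing from a list.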
